A study of Arabidopsis thaliana with 4 samples.

Results

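The gibberellin oxidases are the soluble enzymes that make gibberellin active and then inactivate it. The 10 genes described here were taken by identifier from the 32548 genes of the deposited expression values. The 5 synthesis genes are GA20OX1, GA20OX2, GA20OX3, GA3OX1 and GA3OX2, and the 5 inactivation genes are GA2OX1, GA2OX2, GA2OX4, GA2OX6 and GA2OX8. RNA was sequenced from whole Arabidopsis thaliana seedlings 2 weeks old, with 2 libraries from wild type Col-0 plants and 2 from the mutant labelled uba2c(-/-), and no other treatment. Both genotypes grew on Murashige and Skoog plates under long days, with 16 h of light at 23 °C and 8 h of darkness at 22 °C. UBA2C encodes a protein that binds RNA. How the gene is disrupted and at what hour the seedlings were taken is not in the labels, so a difference in hour between the genotypes and an effect of the mutation cannot be told apart.

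Gibberellins are diterpenoid hormones that promote germination, stem elongation and, in Arabidopsis, flowering. Late in their synthesis a GA 20-oxidase (GA20OX) trims the carbon skeleton in successive oxidations, and a GA 3-oxidase (GA3OX) adds the hydroxyl group that makes the hormone active. A GA 2-oxidase (GA2OX) hydroxylates another position and so removes active hormone or its precursors. Active gibberellin is sensed by GID1 receptors, which mark the DELLA growth repressors for destruction. The pathway regulates itself: in Arabidopsis, transcripts of several GA20OX and GA3OX genes fall, and those of several GA2OX genes rise, when gibberellin is plentiful.

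All 10 enzymes belong to the dioxygenases that use 2-oxoglutarate and iron, and a histidine and an aspartate spaced by 1 residue help to hold the iron. The stretches below are shown because they make the classes visible side by side. Each is 13 codons of the coding strand around that pair, 5′ to 3′, read from the TAIR10.1 genome with its RefSeq annotation, with the histidine and aspartate codons in capitals.
GA20OX1 (AT4G25420), chr4:12991457-12991495, minus strand: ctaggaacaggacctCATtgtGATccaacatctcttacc
GA20OX2 (AT5G51810), chr5:21055848-21055886, minus strand: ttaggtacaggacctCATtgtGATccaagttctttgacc
GA20OX3 (AT5G07200), chr5:2244315-2244353, minus strand: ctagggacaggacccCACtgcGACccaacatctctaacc
GA3OX1 (AT1G15550), chr1:5344929-5344967, minus strand: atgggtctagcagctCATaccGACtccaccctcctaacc
GA3OX2 (AT1G80340), chr1:30201043-30201081, minus strand: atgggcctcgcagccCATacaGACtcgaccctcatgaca
GA2OX1 (AT1G78440), chr1:29512238-29512276, minus strand: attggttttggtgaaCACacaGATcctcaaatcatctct
GA2OX2 (AT1G30040), chr1:10538578-10538616, plus strand: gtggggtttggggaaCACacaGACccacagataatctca
GA2OX4 (AT1G47990), chr1:17700114-17700152, plus strand: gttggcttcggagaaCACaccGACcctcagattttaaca
GA2OX6 (AT1G02400), chr1:488910-488948, plus strand: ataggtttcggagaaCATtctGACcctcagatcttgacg
GA2OX8 (AT4G21200), chr4:11305977-11306015, plus strand: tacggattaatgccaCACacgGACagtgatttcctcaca

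GA2OX8, whose enzyme acts on precursors ahead of the GA20OX step, stands apart from the other GA2OX genes in this stretch. Over whole coding sequences GA20OX1 and GA20OX2 were the closest pair of the 10, with 79.4% of aligned bases identical, and GA3OX1 and GA3OX2 shared 76.6%. The 10 pairs among GA2OX genes shared 57.4% to 66.1%, much as pairs from different classes did (56.1% to 64.3%). Reads of 50 bases could still be told apart: none of the 50-base stretches in the 10 transcripts occurred outside its own gene in the genome. None of the 10 genes overlaps another annotated gene on either strand. GA3OX2 lies 928 bases from GA3OX4, its neighbour on chromosome 1, and GA3OX4 had 1 read in all 4 libraries together.

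Per kb of exon in Col-0 the 10 genes all lay below the middle of the 24870 genes with reads. GA3OX1 (percentile 44.2) and GA2OX6 (41.2) came close to it, and GA20OX3 (9.49) and GA2OX4 (14) were lowest. The libraries held 19720586 to 19847651 reads after whole reads were recovered from the deposited values, which are counts brought to a common depth. Of these, 389 and 417 reads came from the 10 genes in Col-0 replicates 1 and 2, and 559 and 577 in uba2c replicates 1 and 2. The other 6 GA oxidase genes looked up added 23 reads over all 4 libraries. UBA2C itself was lower in both mutant libraries (209 and 234) than in Col-0 (799 and 771), although the lesion is unknown and the gene shares 277 bases of exon with its neighbour on the same strand. Summed leaf markers were at 847510 to 919070 in every library, although of the 6 genes 4 were lower and 2 higher in uba2c in limma. Root markers were present throughout, and their sum was lower in uba2c (3097 and 3265) than in Col-0 (4724 and 5285). Of 15 root markers 7 were lower and 3 higher in uba2c (limma, adjusted p under 0.05). Over all tested genes 17.4% were lower and 17.4% higher in that fit. Of the flower markers AP1 and LFY had at most 2 reads in any library, AP3 and AG were lower in uba2c, and none of the 6 was higher. Of the 5 seed and embryo markers 2 could be tested and neither passed, and LEC1 and ABI3 had no read. In whole seedlings, fewer cells of a type and less RNA per cell cannot be told apart.

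**Figure D1:**
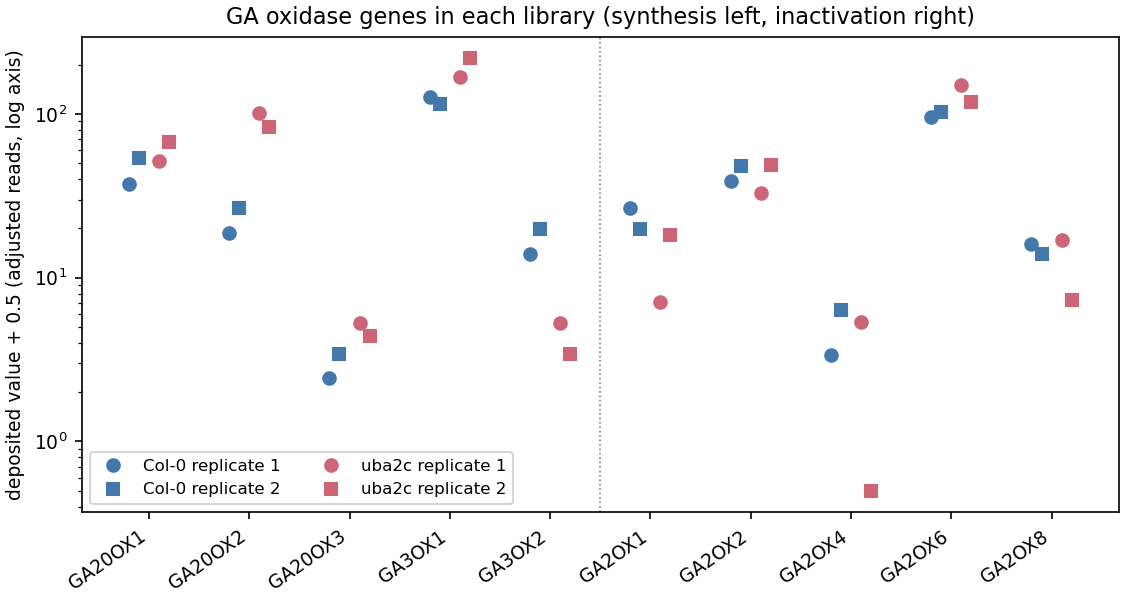
Deposited value plus 0.5 (log axis) of each of the 10 genes in each of the 4 libraries, Col-0 in blue and uba2c in red, with circles for replicate 1 and squares for replicate 2. GA20OX2 lies at 18.4 and 26.2 in Col-0 and at 100.2 and 83.3 in uba2c, and GA3OX2 falls from 13.5 and 19.4 to 4.83 and 2.93.

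Levels can be compared between genes only per length, here as adjusted reads per kb of exon (mean ± SD, n = 2). In Col-0, GA3OX1 was highest at 79.3 ± 5.93, followed by GA2OX6 at 66.0 ± 2.79 and GA20OX1 at 29.2 ± 7.66. Then came GA2OX2 (18.1), GA2OX1 (17.4), GA20OX2 (14.3), GA3OX2 (11.3) and GA2OX8 (9.78), where each neighbour's libraries overlapped the next. GA2OX4 (3.54) and GA20OX3 (1.51) were lowest. In uba2c, GA3OX1 (126 ± 23.7) and GA2OX6 (89.5 ± 14.6) again headed the order, and GA20OX2, at rank 6 in Col-0, came next at 58.8 ± 7.67, ahead of GA20OX1 at 38.1 ± 7.29. GA2OX2 (16.9), GA2OX1 (9.29), GA2OX8 (7.83) and GA20OX3 (2.72) followed, with overlap between GA2OX1 and GA2OX8. GA3OX2 moved from rank 7 to rank 9 at 2.66, where its libraries overlapped those of GA20OX3 and of GA2OX4 (1.97).

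Summed over a class on the same scale, the GA20OX genes stood at 36.7 and 53.2 in Col-0 and at 100.2 and 99.1 in uba2c. The GA3OX genes stood at 92.7 and 88.4 in Col-0 and at 113 and 145 in uba2c. In both classes the genotypes did not overlap. The GA2OX genes stood at 113 and 116.6 in Col-0 and at 133.6 and 117.5 in uba2c, where the lower mutant library was barely above the higher Col-0 library. These sums are a description of transcript levels and were not tested.

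**Figure D2:**
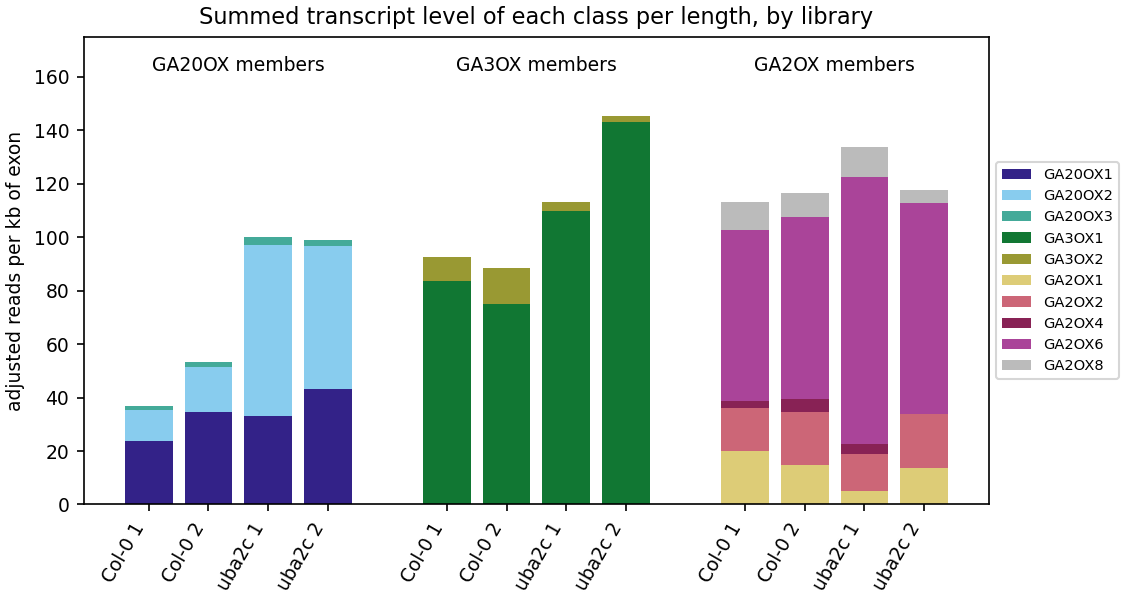
Stacked adjusted reads per kb of exon for the GA20OX, GA3OX and GA2OX genes in each of the 4 libraries. The GA20OX columns grow from 36.7 and 53.2 in Col-0 to 100.2 and 99.1 in uba2c, mostly through GA20OX2, while the GA2OX columns stay between 113 and 133.6.

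Across the 10 genes, 2 rose and 1 fell in uba2c, all 3 in synthesis: GA20OX2 and GA3OX1 rose, and GA3OX2 fell. Calls are from limma on log2(value + 0.5), two-sided, with Benjamini-Hochberg adjustment over the 22439 genes tested and a threshold of 0.05. In that fit 17.4% of all tested genes rose and 17.4% fell, 34.8% in all, and among the 8000 tested genes with a mean value in the range of the members 8.76% rose and 15.9% fell, 24.6% in all. Calls in 3 of 10 members lie near both backgrounds, so the count itself is no result about the family. The median log2 fold change was 0.14 over the 10 genes and −0.00 over all tested genes. The genotypes did not overlap for 6 of the 10 genes, against 68.1% of all tested genes. Fold changes are differences of mean log2(value + 0.5), which in genes with few reads can differ in either direction from the ratio of reads.

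GA20OX2, which acts with GA20OX1 in growth and flowering, was higher in uba2c. Its value was 18.4 and 26.2 in the Col-0 libraries and 100.2 and 83.3 in the uba2c libraries. Both mutant libraries were thus more than 3 times the higher Col-0 library. The mean went from 22.3 ± 5.57 to 91.8 ± 11.97 (SD, n = 2 each), a difference of 2.03 on the log2 scale (SE 0.23, adjusted p = 0.000425 by limma), or 4.09-fold. edgeR's quasi-likelihood test on the recovered reads gave 2.04 (SE 0.22, adjusted p = 4.87e-10). Behind it stood 46 reads in Col-0 and 189 in uba2c.

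GA20OX1, the gene mutated in the semi-dwarf ga5, was at 36.7 and 53.4 in Col-0 and at 50.9 and 66.8 in uba2c, and the genotypes overlapped. Its log2 fold change was 0.39, with an SE of 0.24 and an adjusted p of 0.245 by limma. The ratio of reads, uba2c over Col-0, was 1.29 with a 95% exact interval of 0.979 to 1.71, which covers counting error only. GA20OX3, the third 20-oxidase gene, was at 1.93 and 2.91 in Col-0 and at 4.82 and 3.92 in uba2c. With 2 to 5 reads a library its ratio of 1.79 had an interval of 0.539 to 6.80 (limma adjusted p = 0.321), so a difference of moderate size was not detectable at this depth.

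The share of GA20OX2 within the GA20OX step was higher in both uba2c libraries than in both Col-0 libraries. GA20OX2 supplied 32.2% of the GA20OX1, GA20OX2 and GA20OX3 reads in Col-0 replicate 1 (95% exact binomial interval 20.6% to 45.6%) and 31.8% in replicate 2 (22.1% to 42.8%). In uba2c it supplied 64.2% (56.3% to 71.6%) and 54.1% (46.0% to 62.1%). The intervals, which cover counting error only, did not overlap between genotypes, but the nearest ends were 45.6% (Col-0 replicate 1) and 46.0% (uba2c replicate 2). Replicates differed by more than counting error, so these intervals are too narrow to settle a difference between genotypes. The shares hold the same reads as the GA20OX2 call and are no separate evidence. With 2 libraries against 2, an exact two-sided permutation test of a single value cannot go below p = 0.333.

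GA3OX1, the main 3-oxidase gene of vegetative tissue and the gene mutated in ga4, was at 127 and 114 in Col-0. In uba2c it was at 167 and 218, above both Col-0 libraries. It rose from 120.7 ± 9.03 to 192.5 ± 36.05 (SD, n = 2 each), a difference of 0.66 on the log2 scale (SE 0.15, adjusted p = 0.00966 by limma), or 1.58-fold. On the recovered reads edgeR gave 0.67 (SE 0.13, adjusted p = 3.9e-05).

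GA3OX2, which works beside GA3OX1 in germinating seeds and young seedlings, went the other way. It was at 13.5 and 19.4 in Col-0 and at 4.83 and 2.93 in uba2c, so the genotypes did not overlap. Its mean fell from 16.5 ± 4.18 to 3.88 ± 1.34 (SD, n = 2 each), a difference of −1.97 on the log2 scale (SE 0.43, adjusted p = 0.00954 by limma). The call rests on 34 reads in Col-0 and 8 in uba2c, a ratio of reads, Col-0 over uba2c, of 4.27 (95% exact interval 1.94 to 10.7). It was kept by edgeR (−2.05, adjusted p = 0.000853) and lost with DESeq2 (adjusted p = 0.0618). Root markers moved both ways in the same libraries, with 7 of 15 lower, 3 higher and 5 not past in limma. Their part in this result was not tested.

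Within the GA3OX step, GA3OX1 supplied 90.3% of reads in Col-0 replicate 1 (95% exact binomial interval 84.3% to 94.6%) and 85.5% in replicate 2 (78.5% to 90.9%). In uba2c its share was 97.2% (93.6% to 99.1%) and 98.7% (96.2% to 99.7%). The shares were higher in both mutant libraries, although the intervals of Col-0 replicate 1 and uba2c replicate 1 overlapped.

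**Figure D3:**
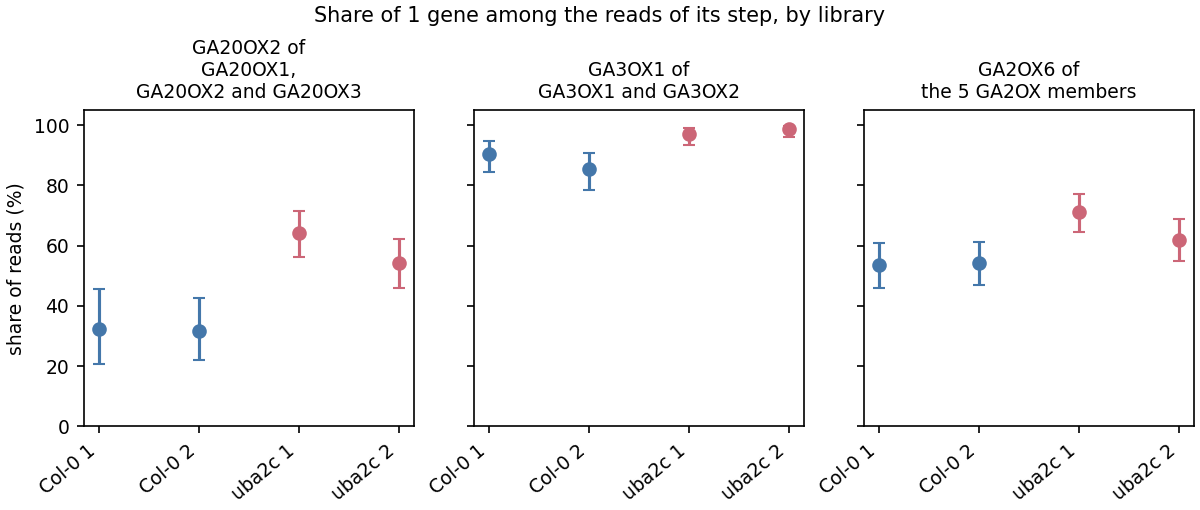
Share of reads (%) that GA20OX2, GA3OX1 and GA2OX6 supplied within their steps, 1 point a library with its 95% exact binomial interval, Col-0 in blue and uba2c in red. GA20OX2 moves from 32.2% and 31.8% to 64.2% and 54.1%.

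None of the 5 inactivation genes passed in limma. GA2OX6, known in Arabidopsis as a target of the MADS factor AGL15, was at 95.9 and 102 in Col-0 and at 149 and 119 in uba2c, with no overlap. Its log2 fold change was 0.43, with an SE of 0.15 and an adjusted p of 0.0532 by limma. edgeR called it higher (0.44, adjusted p = 0.0108), and so did limma with a minimum value of 5 (adjusted p = 0.0225) or after TMM scaling (adjusted p = 0.0453). edgeR lost that call without Col-0 replicate 1 (adjusted p = 0.0694) and without uba2c replicate 1 (adjusted p = 0.218), and narrowly with no filter on low counts (adjusted p = 0.0531). DESeq2 gave an adjusted p of 0.186, and the lowest of any alternative was 0.00782, in edgeR with the replicate block. GA2OX6 supplied 53.5% of GA2OX reads in Col-0 replicate 1 (exact binomial interval 46.05% to 60.86%) and 54.1% in replicate 2 (46.84% to 61.28%). In uba2c its share was 71.1% in replicate 1 (64.59% to 77.02%) and 62.05% in replicate 2 (54.84% to 68.89%). The interval of uba2c replicate 2 overlapped those of both Col-0 libraries, and that of uba2c replicate 1 overlapped neither. These intervals cover counting error only.

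GA2OX1, which inactivates active gibberellin, was at 26.2 and 19.3 in Col-0 and at 6.64 and 17.7 in uba2c. Both mutant values were lower, but the mutant libraries differed from each other more than the genotypes' nearest libraries did. Its log2 fold change was −1.01, with an SE of 0.46 and an adjusted p of 0.126 by limma. edgeR called it lower (−0.90, adjusted p = 0.0461), a call lost without uba2c replicate 1, the lower mutant library (−0.36, adjusted p = 0.488), and without Col-0 replicate 1 (−0.67, adjusted p = 0.297). edgeR also lost it with the replicate block (adjusted p = 0.0523), with plain library totals (adjusted p = 0.0602) and with no filter on low counts (adjusted p = 0.167), and DESeq2 gave an adjusted p of 0.342. The lowest adjusted p of any alternative was 0.0234, in edgeR without uba2c replicate 2.

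GA2OX2, another gene for inactivation of active gibberellin, overlapped fully, at 38.7 and 47.6 in Col-0 and 32.6 and 48.1 in uba2c. The ratio of reads, uba2c over Col-0, was 0.927 (95% exact interval 0.679 to 1.27, limma adjusted p = 0.754). GA2OX8 was at 15.5 and 13.6 in Col-0 and at 16.5 and 6.82 in uba2c (limma adjusted p = 0.489), with the mutant libraries on both sides of Col-0. GA2OX4, which KNOX homeobox factors are known to switch on at the base of the shoot meristem, was at 2.88 and 5.84 in Col-0 and at 4.86 and 0 in uba2c, too few reads to order the genotypes (limma adjusted p = 0.314).

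With edgeR, which tested 8 of the 10 genes, 3 were higher and 2 lower, beside 22.6% higher and 22.9% lower of all genes it tested (45.5% in all). GA20OX3 and GA2OX4 had too few reads for its filter. Without either uba2c library limma called 0 genes of the whole genome (7513 and 7412 at an unadjusted p under 0.05), so every limma call given here needs both. In edgeR's fits without each library in turn, the largest adjusted p was 0.0036 for GA20OX2, 0.0328 for GA3OX1 and 0.0403 for GA3OX2, so these 3 calls held in all 4.

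**Figure D4:**
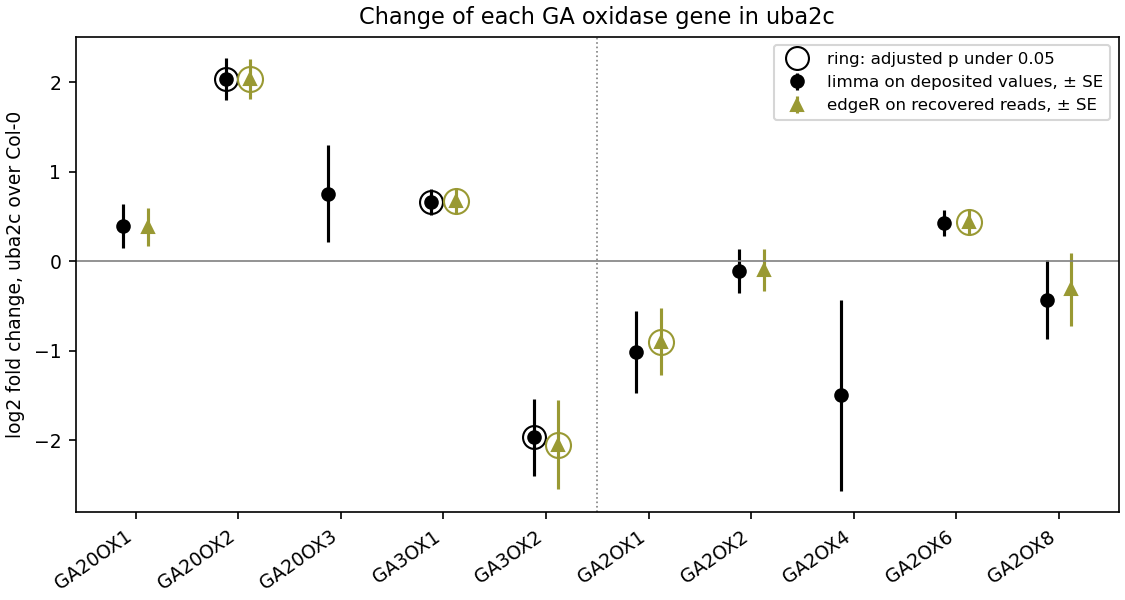
Log2 fold change, uba2c over Col-0, of each of the 10 genes with its SE, from limma on deposited values (black circles) and edgeR on recovered reads (triangles), with a ring where the adjusted p was under 0.05. GA20OX2 at 2.03 and GA3OX1 at 0.66 are ringed above 0 in both fits and GA3OX2 at −1.97 below 0, while GA2OX1 and GA2OX6 are ringed in edgeR alone.

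The promoters of the 3 genes that passed are shown. They were picked by their calls, so a contrast between them is no test. Each is the 200 bases before the annotated transcript start in TAIR10.1, 5′ to 3′ on the gene's strand. Capitals mark CATGTG, a motif bound by PHYTOCHROME INTERACTING FACTORs, and CAACA, 1 part of the site of RAV factors such as TEM1 and TEM2, on either strand. Other motifs searched are not marked, among them TATAAA, which all 3 promoters hold.
GA20OX2, chr5:21056882-21057081, minus strand: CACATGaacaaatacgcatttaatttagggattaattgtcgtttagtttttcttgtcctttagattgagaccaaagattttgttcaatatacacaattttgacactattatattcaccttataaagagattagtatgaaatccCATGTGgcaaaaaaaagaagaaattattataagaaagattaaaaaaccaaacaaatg
GA3OX1, chr1:5346343-5346542, minus strand: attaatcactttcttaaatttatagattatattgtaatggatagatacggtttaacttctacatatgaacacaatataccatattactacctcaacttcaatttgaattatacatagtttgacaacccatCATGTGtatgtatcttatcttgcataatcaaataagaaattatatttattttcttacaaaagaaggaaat
GA3OX2, chr1:30202350-30202549, minus strand: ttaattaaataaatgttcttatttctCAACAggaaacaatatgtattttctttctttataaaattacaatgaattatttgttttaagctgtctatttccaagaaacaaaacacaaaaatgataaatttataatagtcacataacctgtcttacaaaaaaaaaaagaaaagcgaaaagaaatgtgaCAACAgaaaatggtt

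CATGTG starts 57 and 200 bases before the transcript start of GA20OX2 and 70 bases before that of GA3OX1, and the other 8 genes have no match in this window. Among 32546 promoters of the same length 9.03% hold it. CAACA occurs in 5 of the 10 promoters (GA20OX1, GA3OX2, GA2OX1, GA2OX4 and GA2OX8) and in 41.0% of all. The G-box CACGTG occurs in GA2OX4 (5.11% of all), TAACAAA in GA2OX8 (12.8%) and TATAAA in 6 genes (39.8%). No match was found for CACCTG, the other part of the RAV site (2.19% of all), CCGAC (9.76%) or TGACTGAC (0.347%). CC and GG around any 6 bases had no match either (15.1% of all). That pattern is looser than the CArG box of MADS factors, so 15.1% is not the share of that box. Both strands were searched, and in these 10 promoters no match of CATGTG or CAACA shared bases with a match of another motif. These matches describe letters in a short window and show no binding.

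The rest of the pathway was read from the same fit, in which 17.4% of all tested genes rose and 17.4% fell. Each list count below is to be read beside these shares. Of the 5 early synthesis genes 2 fell and 1 rose. KO, the cytochrome P450 that oxidises ent-kaurene, was at 669 and 643 in Col-0 and at 420 and 404 in uba2c, a difference of −0.67 on the log2 scale (SE 0.06, adjusted p = 0.000112 by limma). KS, the synthase of ent-kaurene, fell from 358 ± 9.04 to 246 ± 28.6 (SD, n = 2 each; −0.55, limma adjusted p = 0.00325). KAO2, one of a pair of oxidases at the end of this stage, rose from 509 ± 29.2 to 622 ± 3.25 (0.29, limma adjusted p = 0.00858). KAO1, its partner, was at −0.37 (limma adjusted p = 0.0506) and CPS, the first committed enzyme, at 1.019 (0.0567). edgeR called KAO1 lower (adjusted p = 0.00858) and CPS higher (0.0376). KS overlaps a gene on the opposite strand by 78 bases of exon, and KAO1 overlaps a gene on its own strand by 32 bases. Whether counting used strand is unknown, so reads in such overlaps may belong to either gene.

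The other 6 GA oxidase genes were close to silent. GA20OX4 had no read, GA3OX3 had 2 reads and GA2OX3 4 over all libraries. GA20OX5 had 5 reads in Col-0 and 1 in uba2c, a ratio of 5.03 (95% exact interval 0.563 to 238), and GA2OX7, the closest relative of GA2OX8 in function, had 5 in each genotype. Of these, 2 were tested and 0 passed in limma. In the list of other inactivation genes 3 of 4 were tested and 0 passed: the cytochrome P450 gene CYP714A2 was at 7.77 and 5.80 in Col-0 and at 0.943 and 2.95 in uba2c (limma adjusted p = 0.0636), and its relative ELA1 was at a log2 fold change of −0.51 (limma adjusted p = 0.097).

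Among the genes for gibberellin receptors and for degradation of DELLA proteins, 1 of 5 rose and 2 fell. The receptor gene GID1A went from 671 and 691 in Col-0 to 847 and 800.3 in uba2c (log2 fold change 0.27, limma adjusted p = 0.00614). GID1B (0.01) and GID1C (0.09) did not pass. The F-box gene SLY1, whose protein carries DELLA proteins to degradation, was lower by a log2 fold change of −0.24 (limma adjusted p = 0.0315). SNE, which can stand in for SLY1, went from 21.3 and 18.4 to 10.6 and 5.86 (−1.27, limma adjusted p = 0.034). The SLY1 call was lost in 7 of 21 alternatives and the SNE call in 8 of 21, with losses in limma, edgeR and DESeq2. In limma, SLY1 was at −0.20 without Col-0 replicate 2. SNE was at −1.17 and −1.38 in limma without Col-0 replicates 1 and 2. The adjusted p over all alternatives ran from 0.0114 to 0.215 for SLY1 and from 0.00975 to 0.189 for SNE, highest in DESeq2 for both.

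DELLA genes and the modifiers of their proteins were higher: 7 of 8 rose and 0 fell, with a median log2 fold change of 0.32 beside −0.00 over all tested genes. GAI rose from 1462 and 1530 in Col-0 to 2041 and 2146 in uba2c (0.48, SE 0.05, limma adjusted p = 0.00015). RGA rose by 0.35 (limma adjusted p = 0.000798), and SEC, which modifies DELLA proteins with a sugar, by 0.22 (0.00424). RGL3, a DELLA gene induced by jasmonate, rose most, from 75.4 and 98.1 to 157 and 186 (0.98, SE 0.16, limma adjusted p = 0.00243). RGL2, the DELLA that holds back germination, was at −0.28 (limma adjusted p = 0.244). Reference genes were higher too, with 5 of 7 rising, 0 falling and a median of 0.19, so the change of SEC is about the size of theirs. The largest change among the reference genes was 0.34, above the median of the DELLA list, KAO2 (0.29) and GID1A (0.27), and close to RGA. GAI and RGL3 lay further above it.

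Of 14 genes of the GASA family, small cysteine-rich proteins often induced by gibberellin, 9 were tested, 1 rose and 3 fell. GASA9 went from 2654 and 2724 in Col-0 to 1213 and 1252 in uba2c (log2 fold change −1.13, SE 0.04, limma adjusted p = 1.52e-06). GASA5 (−0.56, limma adjusted p = 0.00317) and GASA1 (−0.29, 0.00259) fell, and GASA7 rose (0.67, 0.000569). GASA4 and GASA6, the most abundant members by value, were at −0.06 and 0.07 and did not pass. GASA6 and GASA9 overlap a gene on the opposite strand by 206 and 11 bases of exon, with the same limit on strand. Of the 3 gibberellin transporter genes 1 fell: SWEET13 was at 89.3 and 74.5 in Col-0 and at 48.1 and 49.0 in uba2c (−0.74, limma adjusted p = 0.0118). That call was lost without Col-0 replicate 1 (limma adjusted p = 0.0732) and with DESeq2 (0.0663), and the lowest and highest adjusted p of any alternative were 0.00076 and 0.146.

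Transcription factors known in Arabidopsis to regulate GA oxidase genes moved in both directions, with 8 of 20 higher, 6 lower and a median log2 fold change of 0.02. TEM2, a repressor of GA3OX genes, was lower at −1.19 (limma adjusted p = 2.03e-06). The cold regulators CBF1, CBF2 and CBF3, which are known to raise GA2OX transcripts, were lower at −1.52, −1.64 and −2.18 (limma adjusted p = 0.000158, 4.15e-05 and 8.33e-06). CBF3 shares 29 bases of exon with a gene on the opposite strand. DDF1, a relative of the CBF factors that is known to raise GA2OX7, went the other way, from 5.84 and 1.91 in Col-0 to 31.8 and 25.5 in uba2c (2.89, limma adjusted p = 0.00319), the largest log2 fold change of the list in limma. STM, the KNOX factor of the shoot meristem, was at 6.77 and 7.76 in Col-0 and at 36.4 and 51.1 in uba2c (2.49, limma adjusted p = 0.000584). KNOX factors are known to raise GA2OX4 and GA2OX2, and a link between STM and either gene was not tested. GA2OX4 had too few reads to order the genotypes. The list was put together from regulators of opposite sign, so its median has no expected direction.

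**Figure D5:**
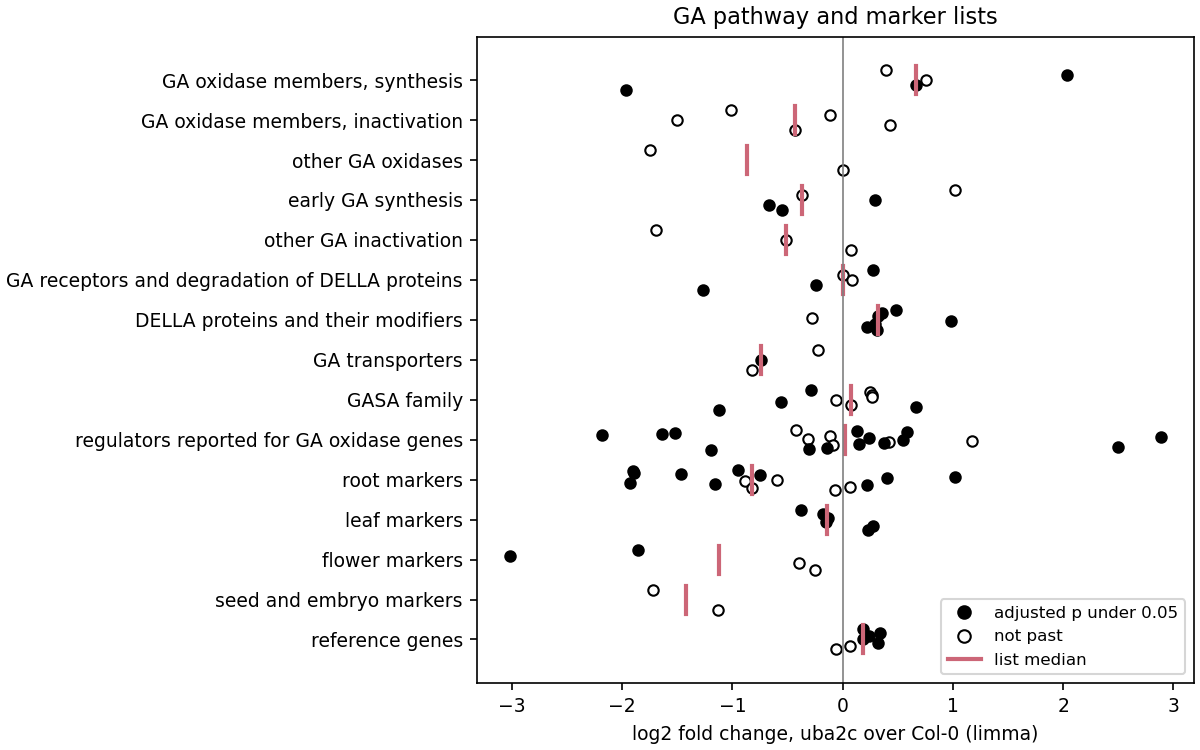
Log2 fold change, uba2c over Col-0 (limma), of each tested gene in the gibberellin lists, the marker lists and the reference genes, filled where the adjusted p was under 0.05, with a red bar at each list's median. The DELLA list has a median of 0.32, the reference genes 0.19 and the root markers −0.82.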

How the data were processed

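RNA from 4 seedling libraries was sequenced as single-end reads of 50 bases. The submitters' processing notes name TAIR10 and, as tools, edgeR, featureCounts, HISAT2, FastQC and SAMtools 1.9. The sources used here state neither the counting options nor whether strand was used. The signal per gene that the authors deposited is a count brought to a common depth. It behaves as edgeR's quantile-adjusted counts, and 100% of values in each library came back to whole reads within 0.1 read.

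The main test was limma 3.58.1 in R 4.3.3 on log2(value + 0.5), with a mean-variance trend and genotype as the only term, for genes that reached a value of 1 in 2 or more libraries. edgeR 4.0.16 and DESeq2 1.42.0 on recovered reads were alternatives. Steps were tested on simulated data. No label says whether libraries came from separate plants, and the spread behind each p-value may therefore be technical. Replicates differed by more than sampling noise (chi-square over degrees of freedom 1.49 in Col-0 and 1.97 in uba2c) and were kept separate.

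All 32548 identifiers matched a TAIR10.1 locus. TAIR10.1 is the RefSeq update of TAIR10, and the table itself has no coordinates. It holds 0 columns of other samples. Where a coding sequence held several histidine and aspartate pairs, the pair at a like relative position in all 10 genes was taken. The genes and lists were chosen with earlier results of these data known. Named are all 10 genes, UBA2C and, from each of 8 further lists, up to 4 genes past the threshold by p, or 2 where none passed. KAO1, CPS, STM, DDF1, GID1B, GID1C, RGL2, GASA4, GASA6 and the genes with few reads are named as further list members, after their values were seen.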

Additional observations from a re-analysis of the deposited data

How the results depend on the processing

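The calls of GA20OX2 and GA3OX1 were lost only where limma left out a uba2c library, among 21 alternatives each. GA3OX2 was also lost with DESeq2. Leaving out 1 library in turn gave 0 to 2 higher and 0 to 1 lower members in limma, and 2 to 3 higher and 1 to 2 lower in edgeR. Lower members numbered 2 with edgeR on recovered reads and 0 with DESeq2. For the 8 further lists, 18 higher and 14 lower genes became 0 to 19 and 0 to 12 in limma without 1 library, and 15 to 20 and 11 to 14 in edgeR. Over all genes, 3908 higher and 3901 lower became 0 to 3352 and 0 to 3167 in limma without 1 library and 2951 to 3595 and 2877 to 3692 in edgeR, and 2454 and 2350 with DESeq2. Of 34 named genes, 60 of 673 results lost their call, 46 of them without a uba2c library in limma. The 673 results include those of named genes without a call in the main fit, which had none to lose. The share of calls lost is therefore larger than 60 of 673. Directions that turned all belonged to genes that never passed. Without 1 library in turn, GA2OX2 ranged from −0.39 to 0.16 in limma, with 0.033 without Col-0 replicate 2, and from −0.40 to 0.16 in edgeR, with 0.055 without Col-0 replicate 2. GA2OX4 ranged from −3.21 to 0.21, GA2OX8 from −1.035 to 0.18 in limma and from −1.07 to 0.17 in edgeR, and GA2OX7 from −0.24 to 0.25. GA2OX7 also turned to −0.0053 with equal library totals and to −0.0093 with limma-voom. The causes were not tested.

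Replicate numbers did not pair the libraries (correlation 0.00827 between the genotypes' replicate differences). With the replicate block limma called 8025 genes in place of 7809, again with 2 members higher and 1 lower. One alternative, edgeR with every gene that has a read, was chosen after seeing the data. Depth limits GA20OX3, GA2OX4 and the 6 other oxidase genes most, with at most 6 reads a library.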
